A study of Cricetulus griseus with 9 samples.

Results

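Transcripts of 9 genes for extracellular proteases and their inhibitors were followed in CHO-K1 cells, a line derived from Chinese hamster ovary. The genes were chosen by name, with earlier results of these data known. They comprise 6 metalloproteinases (Mmp14, Mmp2, Mmp9, Adam12, Adam19 and Adamts9) and 3 tissue inhibitors of metalloproteinases (Timp1, Timp2 and Timp3). All 9 were among the 15557 genes of the deposited table, and 8 of them had a value above 0 in at least 1 library. The 3 transfected RNAs, each left on the cells for 48 h and each with 3 libraries, were pre-miR-29b-1, the related pre-miR-29a, and anti-miR-29a. A pre-miR is a synthetic precursor that raises the microRNA it is named for. The anti-miR is an inhibitor that, per the labels, blocks both miR-29a and miR-29b-1. All groups received a lipid transfection, and cells without a miR-29 reagent were not analysed here. A lower level with a pre-miR therefore cannot be told apart from a higher level with anti-miR-29a.

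Matrix metalloproteinases are zinc enzymes that cut collagens and other matrix proteins outside the cell. The roles given here are those known from human and mouse. Mmp14 sits in the plasma membrane, cuts fibrillar collagen and activates the secreted gelatinase Mmp2, a step in which Timp2 acts as a bridge. ADAMs are membrane proteins with a metalloproteinase domain that shed the outer parts of other proteins, and Adamts9 is a secreted relative that cuts proteoglycans. TIMPs bind the active site of matrix metalloproteinases and block it, and they act on only some of the ADAMs. MicroRNAs of the miR-29 family are known for lowering transcripts of collagens and other matrix genes.

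The values are FPKM, reads scaled to the length of the gene model and to library size. The length used is that of the model less 202 bases. This raises short models, such as Timp1 (609 bases) and Timp2 (534 bases), more than long ones. Levels of different genes are therefore compared only roughly, while comparisons of the same gene between groups are not affected. Implied depth is the library size by which the FPKM were divided, read from the steps between low values. It lay between 15910000 and 21895000 reads per library and was lowest in an anti-miR-29a library. The library scaling is not stated, so this size may differ from the number of reads sequenced. The labels say that cells were grown in triplicate but not that each library is a separate culture, so the p-values rest on a spread among libraries that may be technical. The series text speaks of separate transfection experiments, and if each molecule had its own, molecule and experiment cannot be told apart. Pre-miR-29a replicate 1 had the lowest estimated weight, at 0.213, where the others had 0.429 to 3.54. The next lowest, at 0.429, was pre-miR-29a replicate 2. Results that depend on replicate 1 are given with and without it. In bulk RNA, fewer expressing cells and less RNA per cell cannot be told apart.

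Mmp14 was more than 5-fold lower with either pre-miR than with anti-miR-29a. With pre-miR-29b-1 its libraries held 97.1, 112 and 119 FPKM, and with pre-miR-29a 112, 102 and 107 FPKM, against 569.8, 577 and 623 FPKM with anti-miR-29a. The pre-miR libraries overlapped each other, and all lay far below the lowest anti-miR-29a library. Group means were 109 ± 11.1 FPKM with pre-miR-29b-1 (SD, n = 3), 107 ± 5.06 FPKM with pre-miR-29a and 589.6 ± 28.7 FPKM with anti-miR-29a. The ratio of means made Mmp14 5.39-fold lower with pre-miR-29b-1 and 5.49-fold lower with pre-miR-29a. In a fit to log2(FPKM + 1) over all genes, the log2 difference from anti-miR-29a was -2.42 with pre-miR-29b-1 (SE 0.075, adjusted p = 1.58e-08, limma with Benjamini-Hochberg adjustment). The pre-miR-29a difference was -2.45 (SE 0.075, adjusted p = 1.55e-08, limma). Each library carried between 2832 and 17730 implied reads for this gene, so counting error is small beside the spread of the libraries.

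Of the gelatinases, Mmp9 was abundant and moderately lower with the pre-miRs, while Mmp2 was close to the detection limit. Mmp9 stood at 295, 304 and 326 FPKM with pre-miR-29b-1 and at 303, 311 and 269 FPKM with pre-miR-29a, against 405, 360.2 and 373 FPKM with anti-miR-29a. No pre-miR library reached the lowest anti-miR-29a library. The difference was 1.23-fold lower with pre-miR-29b-1, at a log2 difference of -0.30 (SE 0.070, adjusted p = 0.0050, limma), and 1.29-fold lower with pre-miR-29a, where it was -0.37 (SE 0.070, adjusted p = 0.00138, limma). Mmp2 rested on 1, 2 and 7 reads with pre-miR-29b-1, on 1, 4 and 1 reads with pre-miR-29a and on 3, 2 and 7 reads with anti-miR-29a. These are 0.026 to 0.187 FPKM with pre-miR-29b-1, 0.029 to 0.112 FPKM with pre-miR-29a and 0.070 to 0.208 FPKM with anti-miR-29a, and the groups overlapped. Mmp2 fell under the minimum mean of 1 FPKM set for testing. Its means were 0.090 FPKM with pre-miR-29b-1 and 0.058 FPKM with pre-miR-29a, against 0.124 FPKM with anti-miR-29a. With no minimum, Mmp2 had a log2 difference of -0.07 with both pre-miRs together relative to anti-miR-29a (SE 0.058, adjusted p = 0.405, limma). A difference was not detectable at this depth. The 1 FPKM added before the log exceeds every Mmp2 value and makes this difference and its SE small. That fit therefore cannot tell whether Mmp2 changed.

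Both ADAMs were lower with the pre-miRs, Adam19 by more than Adam12. Adam19, a sheddase that cuts neuregulin in the mouse, held 18.0, 18.9 and 19.5 FPKM with pre-miR-29b-1 and 18.1, 13.3 and 14.5 FPKM with pre-miR-29a, against 123, 107 and 114 FPKM with anti-miR-29a. The lowest anti-miR-29a library was several times above the highest pre-miR library. Means were 18.8 ± 0.73 FPKM with pre-miR-29b-1, 15.3 ± 2.5 FPKM with pre-miR-29a and 115 ± 8.08 FPKM with anti-miR-29a (SD, n = 3 each). Adam19 was thus 6.10-fold lower with pre-miR-29b-1, with a log2 difference of -2.54 (SE 0.10, adjusted p = 6.14e-08, limma). With pre-miR-29a it was 7.49-fold lower, with a log2 difference of -2.84 (SE 0.10, adjusted p = 2.83e-08, limma).

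Adam12, which is known to cut insulin-like growth factor binding proteins, was transcribed at a far lower level. Its libraries held 1.24, 1.11 and 1.40 FPKM with pre-miR-29b-1 and 1.28, 1.69 and 1.68 FPKM with pre-miR-29a, against 3.94, 3.52 and 3.24 FPKM with anti-miR-29a. Those values stand for 40 to 54 reads with pre-miR-29b-1, 46 to 62 reads with pre-miR-29a and 103 to 131 reads with anti-miR-29a, so the groups were apart in reads as well. The ratio of mean FPKM was 2.85-fold lower with pre-miR-29b-1 and 2.30-fold lower with pre-miR-29a. On the log2(FPKM + 1) scale, which shrinks changes of low genes, pre-miR-29b-1 gave a difference of -1.02 (SE 0.118, adjusted p = 5.76e-05, limma) and pre-miR-29a one of -0.84 (SE 0.118, adjusted p = 0.000179, limma). Adding 5 in place of 1 FPKM before the log brought them to -0.45 for pre-miR-29b-1 and -0.39 for pre-miR-29a, with both calls kept. Adding 0.1 FPKM brought them to -1.44 for pre-miR-29b-1 and -1.16 for pre-miR-29a, again with both calls kept.

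Adamts9 and Timp3 were at or near 0 in every library. Adamts9 rested on 5, 1 and 1 reads with pre-miR-29b-1, on 0, 4 and 1 reads with pre-miR-29a and on 1, 0 and 1 reads with anti-miR-29a. Its highest value was 0.041 FPKM, and its model shares exon bases with another gene, so even these few reads may not all be its own. Timp3, which in other species is bound to the matrix and also inhibits some ADAMs, is listed at 0 in all 9 libraries, as are 2181 genes of the table. Both were under the minimum set for testing. With no minimum, Adamts9 had a log2 difference of 0.02 with both pre-miRs together relative to anti-miR-29a (SE 0.019, adjusted p = 0.566, limma). The 1 FPKM added before the log is far above every Adamts9 value and makes this difference and its SE small. That fit therefore cannot tell whether Adamts9 changed. Mean Adamts9 was 0.019 FPKM with pre-miR-29b-1 and 0.015 FPKM with pre-miR-29a, against 0.006 FPKM with anti-miR-29a, on the few reads given above. Timp3, at 0 throughout, was left out of every fit.

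**Figure D1:**
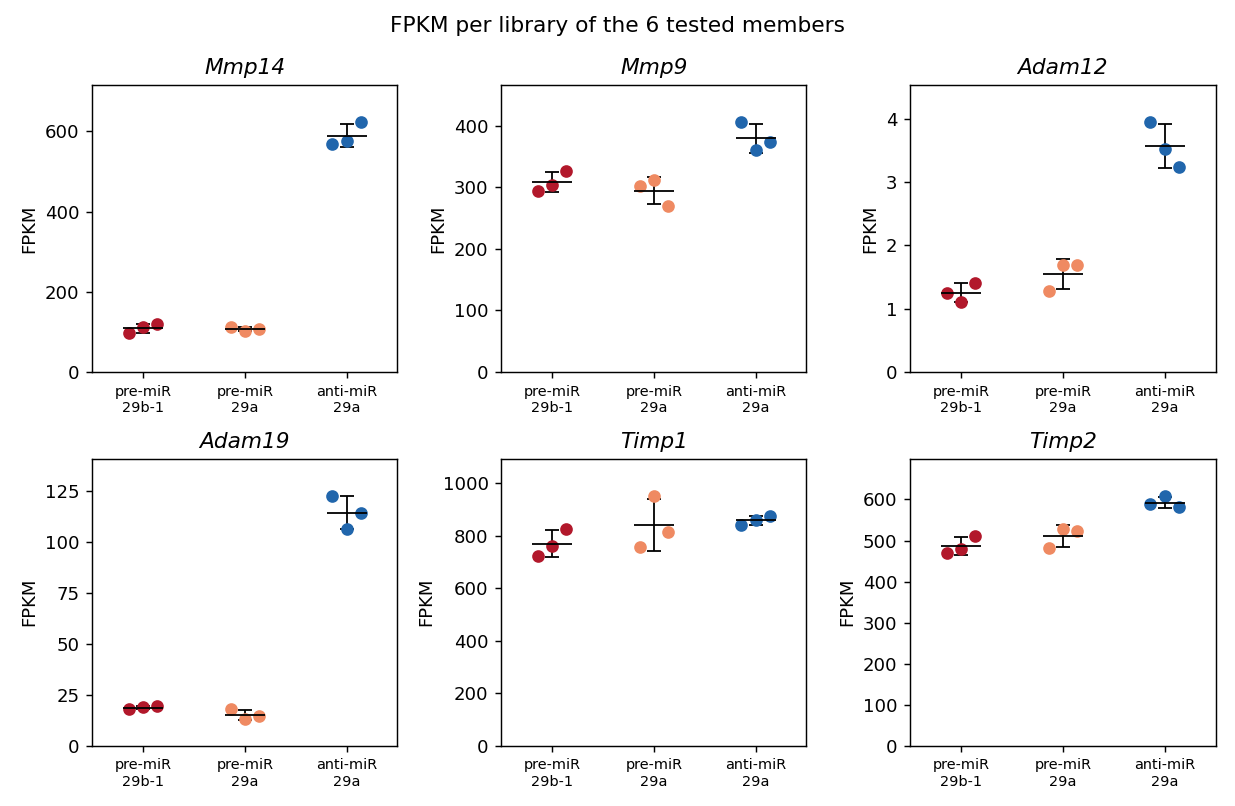
FPKM (vertical axis, from 0) of the 6 tested genes in each library, by transfected molecule (horizontal axis). Points are libraries, and the bar and whiskers are the mean and SD of 3 libraries. For Mmp14, Adam12 and Adam19 the pre-miR libraries sit far below those with anti-miR-29a, while for Timp1 the groups lie close together.

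The inhibitors that were expressed stood among the most abundant transcripts. Timp2 was moderately lower with the pre-miRs, with pre-miR-29b-1 by about as much as Mmp9 at 1.23-fold, and Timp1 differed less. Timp2, the inhibitor that takes part in activating Mmp2, held 469.5, 478 and 510.1 FPKM with pre-miR-29b-1 and 481, 529 and 522 FPKM with pre-miR-29a, against 588, 608 and 582 FPKM with anti-miR-29a. The pre-miR libraries did not overlap those with anti-miR-29a, but the gap was small. Timp2 was 1.22-fold lower with pre-miR-29b-1, at a log2 difference of -0.29 (SE 0.056, adjusted p = 0.00165, limma), and 1.16-fold lower with pre-miR-29a, where it was -0.21 (SE 0.056, adjusted p = 0.00763, limma). After quantile normalization the difference with pre-miR-29b-1 shrank to -0.17 and kept its call.

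Timp1, a secreted inhibitor that acts on Mmp9 and only weakly on Mmp14, held 725, 761 and 828 FPKM with pre-miR-29b-1 and 758, 952 and 815 FPKM with pre-miR-29a, against 841, 862 and 875 FPKM with anti-miR-29a. Every pre-miR-29b-1 library was below every anti-miR-29a library, while pre-miR-29a replicate 2 was the highest of all 9. The log2 difference was -0.16 with pre-miR-29b-1 (SE 0.084, adjusted p = 0.137, limma) and -0.04 with pre-miR-29a (SE 0.084, adjusted p = 0.729, limma). The 95% intervals ran from -0.35 to 0.03 for pre-miR-29b-1 and from -0.23 to 0.15 for pre-miR-29a, so a small difference in either direction could be present with pre-miR-29a. The first of these passed the threshold with estimated library weights (adjusted p = 0.0184, limma) and with only the groups compared in the fit (adjusted p = 0.0389, limma). After quantile normalization it shrank to -0.03 (adjusted p = 0.604, limma). The pre-miR-29a difference turned to 0.02 after quantile normalization (adjusted p = 0.783, limma) and to 0.04 without pre-miR-29a replicate 1 (adjusted p = 0.710, limma).

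The tests took genes whose mean over all libraries reached 1 FPKM. Of the 9 members 6 did, of which 5 were lower with pre-miR-29b-1 than with anti-miR-29a, 0 were higher and 1 was not called (limma, adjusted p under 0.05). Over all 9504 tested genes, 29.4% were lower in that comparison. With pre-miR-29a 5 of the 6 were again lower, against 30.9% of all tested genes. That background turned with quantile normalization, which gave 3340 higher and 2494 lower genes in place of 2613 higher and 2940 lower ones, while the 5 members stayed lower. The anti-miR-29a libraries serve in both comparisons, which are therefore not independent of each other. The median log2 difference of the 6 members was -0.66 for pre-miR-29b-1, beside -0.006 over all tested genes, and -0.60 for pre-miR-29a, beside -0.016. Libraries did not overlap for 6 of 6 members with pre-miR-29b-1, where 35.2% of all tested genes were lower without overlap, and for 5 of 6 with pre-miR-29a, where 33.1% were. Because the members were chosen with earlier results of these data known, these counts and medians describe the list and do not test it.

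With so many genes changed, the size of a difference tells more than the call. With both pre-miRs together set against anti-miR-29a, Adam19 had the rank 5 from the lowest log2 difference of all 9504 tested genes, at -2.69 (SE 0.086, adjusted p = 1.02e-08, limma), and Mmp14 had the rank 11, at -2.44 (SE 0.065, adjusted p = 4.32e-09, limma). Adam12, at -0.93 on this scale that shrinks changes of low genes, stood at 4.83% of the tested genes counted from the lowest. Mmp9 and Timp2 stood in the ordinary range, at 21.6% for Mmp9 with -0.33 and 26.9% for Timp2 with -0.25. Timp1 stood at 40.7% with -0.10 and was not called (adjusted p = 0.269, limma). In that comparison 29.3% of all tested genes were called higher and 32.3% lower, and 362 of the lower ones were at least 2-fold lower on the log2(FPKM + 1) scale.

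**Figure D2:**
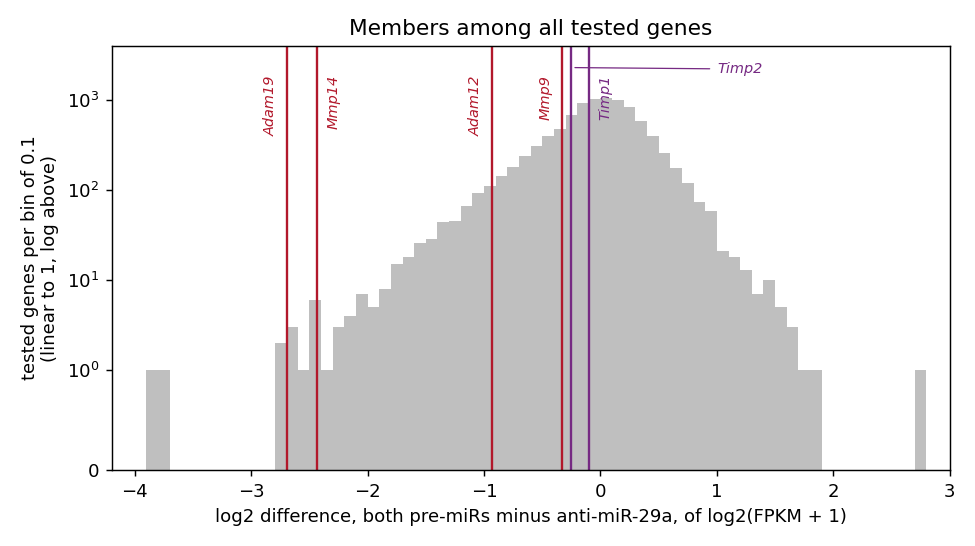
Number of tested genes (vertical axis, linear to 1 and logarithmic above) by log2 difference between both pre-miRs and anti-miR-29a (horizontal axis, bins of 0.1). Lines mark the 4 proteases in red and the 2 TIMPs in purple. Adam19 and Mmp14 lie in the sparse lower tail at -2.69 and -2.44, and Mmp9, Timp2 and Timp1 lie within the main body.

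Set directly against each other, the pre-miRs gave 0 calls by limma among the 6 tested members, with 1 member at an unadjusted p under 0.05. With 3 libraries per group, a lack of calls does not show that levels were equal. In that comparison 0.0105% of all tested genes were called, and 8.73% were lower and 10.2% higher without overlap. The groups overlapped for all 6 members, which does not set so few genes apart from those shares. For Mmp14 the log2 difference (pre-miR-29b-1 minus pre-miR-29a) was 0.02, with a 95% interval from -0.15 to 0.19. The intervals were -0.09 to 0.22 for Mmp9, -0.44 to 0.09 for Adam12, -0.31 to 0.07 for Timp1 and -0.20 to 0.05 for Timp2. Each includes 0, and for Adam12 it reaches down to a ratio of 0.737 for pre-miR-29b-1 over pre-miR-29a on the FPKM + 1 scale.

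Adam19 was the member nearest to a difference between the pre-miRs. Its level was 1.23 times as high with pre-miR-29b-1 as with pre-miR-29a by the ratio of means, at a log2 difference of 0.29 (SE 0.10, 95% interval 0.07 to 0.51, unadjusted p = 0.0156, adjusted p = 0.233, limma). Pre-miR-29a replicate 1, at 18.1 FPKM, lay within the range of the pre-miR-29b-1 libraries, and the other pre-miR-29a libraries lay below it. Without that library the log2 difference was 0.41 and was called (adjusted p = 0.0209, limma), and with library weights it was 0.36 (adjusted p = 0.00295, limma). Library weights also called Mmp9, at 0.16 (adjusted p = 0.0314, limma), and Adam12, at -0.28 (adjusted p = 0.0351, limma). Between the pre-miRs these weights called 3627 of 9504 tested genes, and the fit without replicate 1 called 1378 of 9500. The calls are thus not particular to these members. With weights of 0.213, 0.429 and 3.54, the weighted pre-miR-29a group rested mostly on replicate 3.

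**Figure D3:**
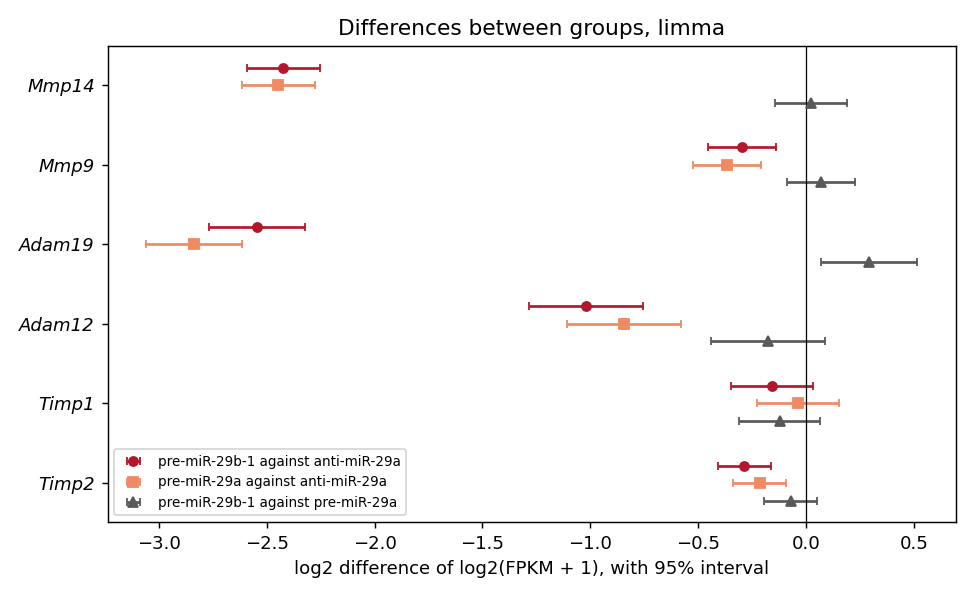
Log2 difference of log2(FPKM + 1) with its 95% interval (horizontal axis, limma) for each tested gene (vertical axis) in 3 comparisons. Circles show pre-miR-29b-1 and squares pre-miR-29a, each relative to anti-miR-29a, and triangles show pre-miR-29b-1 relative to pre-miR-29a. The circles and squares of Mmp14 and Adam19 lie between -2.84 and -2.42, and the triangles lie between -0.18 and 0.29.

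The order of the transcripts by level differed between the groups. With pre-miR-29b-1 it ran from Timp1 at 771 ± 52.3 FPKM through Timp2 at 486 ± 21.3, Mmp9 at 308 ± 16.0 and Mmp14 at 109 ± 11.1 FPKM to Adam19 and Adam12. With pre-miR-29a the order was the same, from Timp1 at 842 ± 99.7 FPKM through Timp2 at 511 ± 25.8, Mmp9 at 295 ± 22.2 and Mmp14 at 107 ± 5.06 FPKM. With anti-miR-29a, Timp1 at 859 ± 17.0 FPKM was followed by Timp2 at 592 ± 13.8 and Mmp14 at 589.6 ± 28.7 FPKM, which did not differ beyond their spread, and then by Mmp9 at 379.6 ± 23.3 FPKM. Mmp14 was therefore below Mmp9 with either pre-miR, and level in FPKM with Timp2 with anti-miR-29a. The place of Timp2 beside Mmp14 depends on the 202 bases taken from its short model of 534 bases, beside 1716 bases for Mmp14. Other lengths were not tried.

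Summed over the 6 proteases, 438 ± 27.3 FPKM were present with pre-miR-29b-1 and 419 ± 22.7 FPKM with pre-miR-29a, against 1087 ± 35.6 FPKM with anti-miR-29a (SD, n = 3 each). The sum of the 3 TIMPs was 1257 ± 73.4 FPKM with pre-miR-29b-1 and 1352 ± 121.6 FPKM with pre-miR-29a, against 1452 ± 20.8 FPKM with anti-miR-29a. The TIMP sum was 2.84 to 2.90 times the protease sum in the pre-miR-29b-1 libraries and 2.85 to 3.45 times in the pre-miR-29a libraries, against 1.3 to 1.4 times in the anti-miR-29a libraries. These sums describe the 9 chosen genes, take no account of which inhibitor acts on which enzyme, and were not tested. Their ratio also depends on the 202 bases taken from each model length, which weigh most on the short TIMP models. Mmp9 made up 70.5% ± 1.08 of the protease sum with pre-miR-29b-1 and 70.3% ± 2.09 for pre-miR-29a, against 34.9% ± 1.70 with anti-miR-29a. For Mmp14 the shares were 24.9% ± 1.16 with pre-miR-29b-1 and 25.7% ± 1.72 for pre-miR-29a, against 54.2% ± 2.23 with anti-miR-29a, so the leading protease transcript was Mmp9 with the pre-miRs and Mmp14 with anti-miR-29a. Adam19 made up 4.29% ± 0.10 of the sum with pre-miR-29b-1 and 3.65% ± 0.53 for pre-miR-29a, against 10.5% ± 0.53 with anti-miR-29a.

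**Figure D4:**
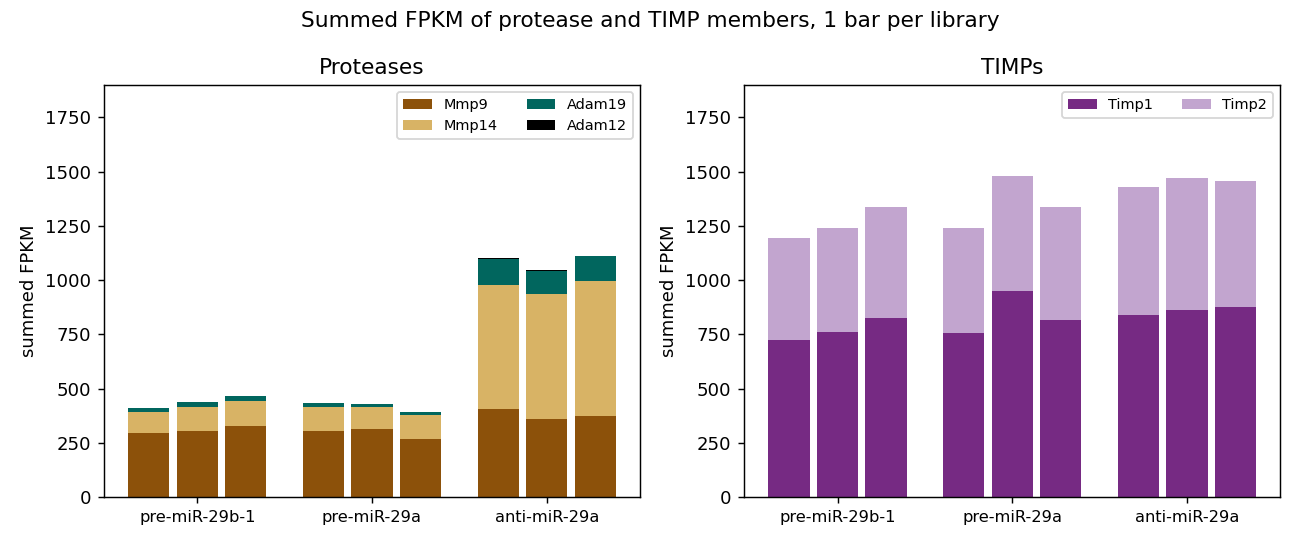
Summed FPKM (vertical axis, from 0) of the protease transcripts (left) and TIMP transcripts (right), 1 bar per library, grouped by transfected molecule (horizontal axis). Mmp2, Adamts9 and Timp3, which were under the minimum set for testing, are not drawn. The protease bars are 393 to 466 FPKM with the pre-miRs and 1047 to 1114 FPKM with anti-miR-29a, with Mmp14 and Adam19 the parts that differ most.

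The gene models are mouse proteins aligned to the hamster assembly CriGri_1.0, and they hold coding exons only. Mmp14 (ENSMUSG00000000957) lies on scaffold JH000634 from 523668 to 534245 on the plus strand, with 11 coding exons and 1716 coding bases. Adam19 (ENSMUSG00000011256) lies on JH000335 from 32811 to 114048 on the minus strand, with 23 exons and 2649 bases. Adam12 (ENSMUSG00000054555) lies on JH002230 from 895 to 81772 on the plus strand, with 16 exons and 2040 bases, close to the start of its scaffold. Mmp9 (ENSMUSG00000017737) lies on JH000219 from 1933338 to 1941072 on the minus strand, with 13 exons and 2124 bases. Timp1 (ENSMUSG00000001131) lies on JH001825 from 260307 to 264115 and Timp2 (ENSMUSG00000017466) on JH000126 from 133381 to 141230, both on the plus strand. None of these 6 models shared exon bases with another gene on either strand. The short models of Timp1, with 609 bases, and Timp2, with 534 bases, gathered 5580 to 7744 implied reads per library for Timp1 and 3026 to 3632 for Timp2.

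The 3 members under the minimum have models of the same kind. Mmp2 (ENSMUSG00000031740) has 13 exons on JH000097 from 2731617 to 2754442, Adamts9 (ENSMUSG00000030022) has 39 exons on JH000005 from 3063735 to 3219997, and Timp3 (ENSMUSG00000020044) has 5 exons on JH000363 from 1154106 to 1200073. Timp3 lies inside the span of 1 other gene model. Their models hold 1989 coding bases for Mmp2, 5805 for Adamts9 and 636 for Timp3.

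Of all tested genes, those whose levels followed Adam19 most closely over the 9 libraries were ENSMUSG00000039678 and ENSMUSG00000025915, each with Pearson's r = 0.999 on log2(FPKM + 1). ENSMUSG00000039678 stood at 28.2 ± 1.56 FPKM with pre-miR-29b-1 and 25.7 ± 1.93 FPKM with pre-miR-29a, against 70.2 ± 2.40 FPKM with anti-miR-29a. ENSMUSG00000025915 stood at 10.1 ± 0.31 FPKM with pre-miR-29b-1 and 9.09 ± 0.62 FPKM with pre-miR-29a, against 25.9 ± 0.45 FPKM with anti-miR-29a. The files do not pair these identifiers with names. Mmp14 held the rank 139 in likeness to Adam19, at r = 0.993. The libraries form 2 sets in these genes, with and without a pre-miR, so r mostly reflects that gap and is given as a description.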

How the data were processed

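Poly(A) RNA of CHO-K1 cells was sequenced as stranded single reads, per the labels' protocols, in 9 libraries. The authors deposited FPKM per gene and library in 1 table. The submitters' processing notes name FastQC, TopHat2 2.0.13 and Cuffnorm. For Cuffnorm the version, library scaling and strand setting are not stated. Per the file headers, the models come from aligning mouse proteins (Ensembl release 66) to CriGri_1.0, and 99.91% of the lengths are multiples of 3, so they are coding lengths. The files carry identifiers without names: 0 of 15557 matched the 32251 genes of RefSeq's CriGri-PICRH-1.0 table, and the symbols of the 9 members came with the list that chose them. Members and lists were chosen with earlier results of these data known. The list of other metalloproteinases and the cell type markers, fixed by symbol, could not be matched and give no counts.

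The deposited FPKM times model length less 202 bases fell in steps of 1 read: of values up to 5 reads in 9669 genes with 1 model, 99.9% to 100.0% per library lay within 0.1 of a whole number. The step gave the implied reads, in the unit Cuffnorm divided by. Reads without molecular identifiers are not independent molecules.

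For genes reaching a mean of 1 FPKM, log2(FPKM + 1) was fitted with limma 3.58.1 (R 4.3.3; trended variances, a term per group, 9 libraries). P-values are two-sided and were adjusted by Benjamini-Hochberg over all 9504 tested genes of a comparison, with a threshold of 0.05. The fit was tested on simulated data. All 9 members were named. The genes most like the member with the largest change were the 2 with the highest Pearson r. Alternatives changed the pseudocount, filter, scaling, library weights and libraries in the fit, added the replicate number as a block, or left out each library.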

Additional observations from a re-analysis of the deposited data

How the results depend on the processing

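No member reversed a called direction and none lost its call: of 422 recomputed member differences, 414 kept their side of the threshold and 8 newly passed it, 5 of them with library weights. The calls against anti-miR-29a of Mmp14, Mmp9, Adam12, Adam19 and Timp2 held under each alternative in which the gene was tested, with a highest adjusted p of 0.0307 (limma), for Mmp9 with pre-miR-29b-1 after quantile normalization. Adam12 was not tested with a filter at 5 FPKM. Timp1 in the comparison of both pre-miRs passed with library weights (adjusted p = 0.0450, limma) and without pre-miR-29a replicate 2 (adjusted p = 0.0466, limma). Between the pre-miRs, 1 gene was called over the table, but 3627 with library weights and 0 with the anti-miR-29a libraries taken out of the fit. Leaving out single libraries gave 1 to 1378, the top value being that without pre-miR-29a replicate 1. The members called there were 0, but 3 with library weights and 0 to 1 over the fits lacking a library. The cause was not tested. A replicate block gave 184 genes called between the pre-miRs and changed no member's call. Same-numbered libraries deviated together with r of -0.02 to 0.29, over 0.1 in 6 of 9 pairs, where pairing was taken only if every pair passed 0.1. The series text leaves it unclear whether a replicate number marks a shared experiment. For both pre-miRs together all groups are compared, so no smaller fit exists. Depth limits Mmp2 and Adamts9, with at most 7 reads per library. What the value of 0 for Timp3 rests on was not tested.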

Other observations

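The tested genes within 200 kb of each tested member on the same scaffold were also examined, a look chosen after the data were seen. Over all tested genes, 32.3% were lower and 29.3% higher with both pre-miRs than with anti-miR-29a (limma, adjusted p under 0.05), and the counts that follow are in the same comparison. Mmp14 had 12 tested neighbours, of which 4 were lower and 1 higher. Their log2 differences ran from -0.54 to 0.26, beside -2.44 for Mmp14 itself. Adam19 had 3, of which 0 were lower and 2 higher, at -0.18 to 0.57, beside -2.69 for Adam19. The single tested neighbour of Adam12 stood at -0.33 and was not called. Among the 9 neighbours of Mmp9, 1 was lower and 4 were higher, at -0.26 to 0.99, beside -0.33 for Mmp9. Timp2 had 6, of which 2 were lower and 1 higher, at -0.79 to 0.30, the lowest lying below Timp2 itself at -0.25. Both neighbours of Timp1 were higher, at 0.34 and 0.79. These counts are small and no test was made of them against the background.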
